A study of Mus musculus with 10 samples.

Results

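The hippocampus of 5 adult wild-type mice was compared with a mixed mouse RNA pool that was hybridised beside it on every array. These 5 arrays of the 10 in the study were chosen by genotype alone, and each held 1 mouse. The mice were wild type for DLK (dual leucine zipper kinase, the product of Map3k12) and served as controls of a conditional DLK knockout, whose 5 arrays were not used here. They had eaten a tamoxifen diet for 3 weeks, as the knockout animals had, so no mouse without tamoxifen is among them. From each hippocampus 750 ng of Cy5-labelled cRNA was hybridised together with the Cy3-labelled Universal mouse reference of Stratagene. For sex, strain and age in weeks, nothing is given in the sources used here.

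The hippocampus is a folded sheet of cortex in which granule cells of the dentate gyrus and pyramidal cells of areas CA3, CA2 and CA1 are linked in a chain of excitatory synapses. Local GABA-releasing interneurons restrain that chain, and astrocytes, myelinating oligodendrocytes, microglia and vessel cells support it. Nearly all of these neurons have left the cell cycle for good. Universal references are in general blends of RNA from cultured, dividing cell lines. The composition of the pool used here was not known, so a lower call says only that the pool gave more signal.

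The measured quantity was the log2 ratio of Cy5 to Cy3 at each probe, normalised within its array. A value of 1 means that the hippocampus gave a signal 2-fold that of the pool, and a value of -1 means the opposite. The dyes were not swapped on any array, so every ratio also holds the dye effect of its probe, and for this reason a gene was called higher or lower only where the mean ratio reached 4-fold (a log2 ratio of at least 2 or at most -2) at an adjusted p under 0.05 (limma, test of the mean against 0, Benjamini-Hochberg over all features). The pool was 1 RNA hybridised 5 times, so the test covers the spread between mice and arrays and leaves out any spread of the reference. In whole tissue, fewer cells of a type and less RNA per cell cannot be told apart. Unless stated otherwise, values below are mean log2 ratios ± SD over 5 mice.

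Of 24850 features measured above background in either channel on at least 3 arrays, 2383 (9.59%) were called higher in the hippocampus and 1428 (5.75%) lower. The features comprised 16801 genes with a symbol and 8049 probes without one. An adjusted p under 0.05 alone was reached by 21465 features, or 86.4%, and 12510 of these differed by less than 2-fold. All 3811 calls had adjusted p-values of at most 0.00088 (limma), and 3808 of them had the same sign on every array with a value. The upper tail was longer than the lower: 323 features had a log2 ratio of at least 5 and 36 a ratio of at most -5. The arrays resembled each other closely, with correlations across features of 0.986 to 0.995, and the median SD over mice was 0.113. In each array 69.6% to 76.1% of probes were well above background in Cy5 and 65% to 72.9% in Cy3, and no probe was saturated.

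**Figure D1:**
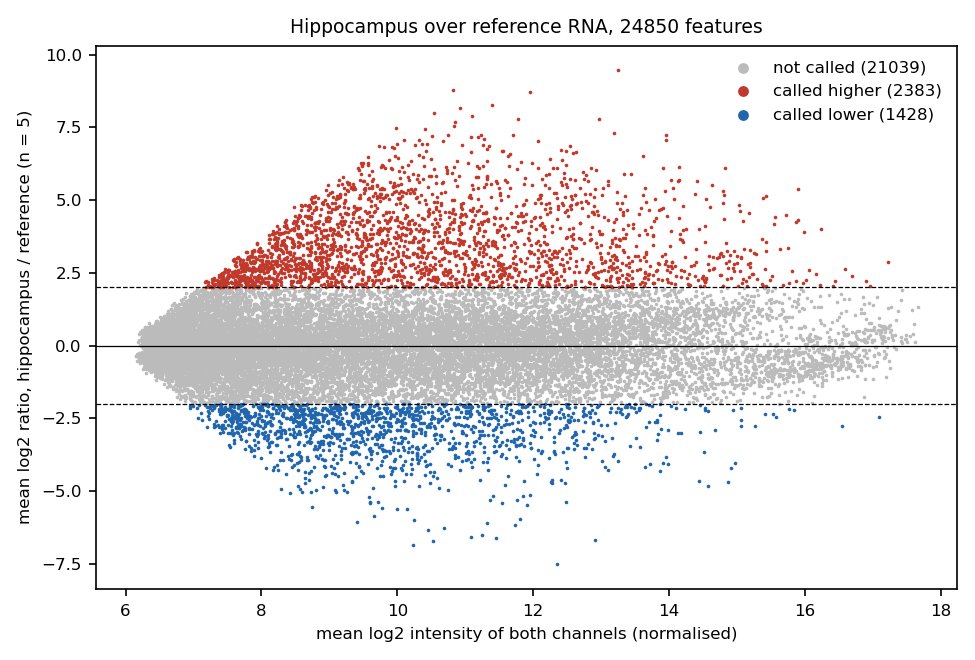
Mean log2 ratio of hippocampus over reference (5 arrays) for 24850 features against their mean normalised log2 intensity; red points are the 2383 features called higher, blue points the 1428 called lower, and dashed lines mark 4-fold. The cloud reaches farther up than down, and called features occur over the whole range of intensity.

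The gene that stood highest among those measured in both channels on all 5 arrays was Sparcl1, which encodes the secreted matricellular protein hevin of astrocytes and neurons. Its log2 ratios were 9.57, 9.43, 9.55, 9.58 and 9.18 in the 5 mice, a mean of 9.46 ± 0.17, or 706-fold. Every mouse thus lay above 9, and no other gene of this kind reached that level. Behind it came the proteolipid-related membrane proteins Gpm6a (8.27 ± 0.07) and Gpm6b (7.78 ± 0.08), and the cell adhesion molecules Clstn2 (8.18 ± 0.21), Cntn1 (7.77 ± 0.11) and Chl1 (7.24 ± 0.20). Calsyntenins are postsynaptic adhesion proteins, and contactin holds axons and myelin together. Others of the 15 highest were the glutamate receptor Grm5, the sodium channel Scn2a, the vesicle-sorting gene Nsg2, the CA1 marker Mpped1, the granule protein Chgb, the dendritic protein Map2, Reps2 and Brinp1, with means of 7.17 to 7.68. The largest adjusted p-value among these 15 genes was 1.68e-12 (limma).

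At the other end stood Anxa1, a calcium-dependent membrane-binding protein of epithelia and leukocytes. Its log2 ratios were -7.21, -7.41, -7.61, -7.38 and -7.99, a mean of -7.52 ± 0.30, which is a 183-fold lower signal in the hippocampus. The 5 mice did not approach 0 at this probe. Next were the interferon-inducible Ifi202b (-6.84 ± 0.12), the collagen Col1a1 (-6.69 ± 0.10), the membrane protein Emp1 (-6.18 ± 0.10) and the cell-cycle inhibitor locus Cdkn2a (-6.09 ± 0.15). The proliferation marker Mki67 followed at -5.97 ± 0.04. The other 9 of the 15 lowest were Thbs1, Uhrf1, Rpl39l, Birc5, Msln, Ect2, Casp4, Rrm2 and Sgo1, with means between -5.87 and -5.20. Uhrf1, Birc5, Ect2, Rrm2 and Sgo1 act in DNA replication or cell division. The adjusted p-values of these 15 genes were at most 1.3e-11 (limma).

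**Figure D2:**
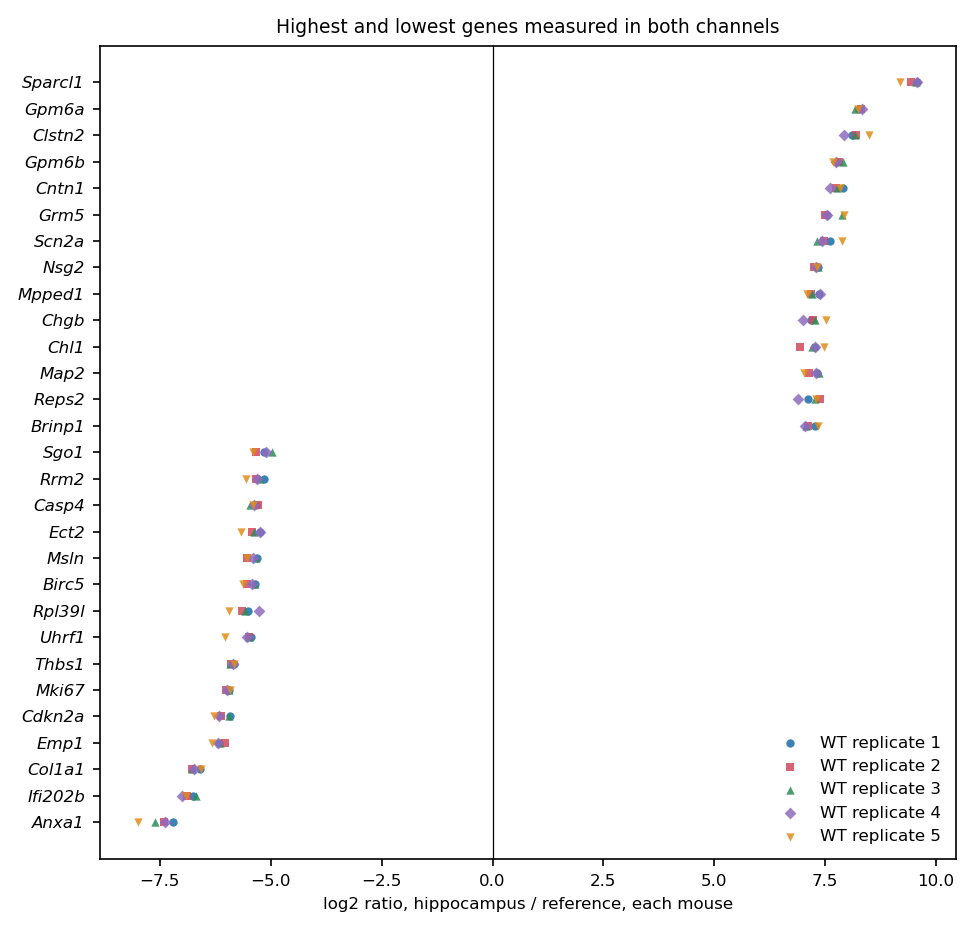
Log2 ratio of hippocampus over reference in each of the 5 wild-type mice for 14 of the 15 highest and the 15 lowest genes measured in both channels on all arrays; each colour and marker shape is 1 mouse. Sparcl1 lies above 9 in every mouse and Anxa1 below -7, and the mice of a gene lie close together beside the distance from 0.

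Genes of the synapse and of neuronal excitability were described next, from lists of members by role. Over the 6 lists that follow, 119 of the 158 genes tested were called higher (75.3%, beside 9.59% of all features) and none was called lower. The other 39 had no call.

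The presynaptic list holds the proteins that fill, dock, fuse and recycle synaptic vesicles. Of its 34 members with a probe, 33 passed the filter, 26 were called higher and none lower. The calcium sensor Syt1 had log2 ratios of 6.41, 6.43, 6.45, 6.64 and 6.71, a mean of 6.53 ± 0.14 or 92.2-fold. The active-zone scaffold Pclo stood at 6.35 ± 0.33, the vesicle GTPase Rab3a at 5.91 ± 0.17 and the endocytic protein Amph at 5.76 ± 0.23. The vesicular glutamate transporter of hippocampal principal cells, Slc17a7, had 3.40 ± 0.09, and the sister transporter Slc17a6 had 2.74 ± 0.42, with the pool above background on 4 of 5 arrays. Among the members without a call was the active-zone protein Rims1 at 1.07 ± 0.07. The 29 members measured in both channels had a median of 3.41, beside 0.0194 for all 19189 features measured that way.

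Glutamate receptors open the postsynaptic channels of fast excitation. Of 18 members with a probe, 12 were called higher and none lower. The AMPA receptor subunit Gria1 had log2 ratios of 7.05, 6.94, 7.04, 6.94 and 7.14, a mean of 7.02 ± 0.08 or 130-fold, so the mice differed from each other by far less than the signal differed from the pool. The kainate receptor subunit Grik4, a marker of CA3, followed at 5.83 ± 0.19. The NMDA receptor subunit Grin1 had 3.41 ± 0.09 and Grin2b had 2.25 ± 0.17. For 6 members the pool gave no signal above background on any array while the hippocampus did on all 5. Such genes have only a lower bound, computed from normalised channel intensities as the hippocampus mean over the higher of the probe's own reference signal and the dimmest reference signal above background on that array, and open to dye bias. Grik3 was at least 22.2-fold higher and Grik1 at least 7.40-fold higher.

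GABA-A receptors carry fast inhibition. Of 18 subunits with a probe, 15 passed the filter and 11 were called higher, and none was called lower. Gabra3 had 5.79 ± 0.19, Gabrb2 had 5.29 ± 0.13, Gabrd, the subunit of tonic inhibition in dentate granule cells, had 4.58 ± 0.23, and Gabrb1 had 4.57 ± 0.15. Gabra4 was at least 34.6-fold higher. The subunits without a call included the retinal subunits Gabrr1 (0.11 ± 0.11) and Gabrr2 (-0.36 ± 0.11), which are little used in the hippocampus, and Gabrg3 (0.14 ± 0.08).

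The postsynaptic list covers scaffolds under the receptors and the calcium/calmodulin kinases that alter synaptic strength. Of its 30 members with a probe, 24 were called higher and none lower. The kinase Camk2a had log2 ratios of 6.01, 5.88, 5.93, 5.71 and 5.68, a mean of 5.84 ± 0.14 or 57.4-fold. The scaffold Dlgap3 stood above it at 6.26 ± 0.07, and the pseudokinase Camkv and the scaffold Cnksr2 reached 5.69 ± 0.06 and 5.35 ± 0.10. Nlgn1, a postsynaptic adhesion protein, was at least 37.4-fold higher.

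Voltage-gated channels fire and shape the action potential. Of 36 members with a probe, 25 were called higher and none lower, and 8 were seen in the hippocampus but not in the pool. The sodium channel Scn2a of axon initial segments had 7.54 ± 0.21, the potassium channel Kcna1 had 6.40 ± 0.18, the sodium channel subunit Scn2b had 6.35 ± 0.18 and the dendritic potassium channel Kcnd3 had 5.88 ± 0.54. Scn1a was at least 38.3-fold higher. Kcnd3 varied more than its neighbours, with 5.46, 5.55, 6.33, 5.45 and 6.60 in the 5 mice. The higher values were those of WT replicates 3 and 5, whose arrays lay on slide 3 of the study, while the others lay on slide 2. Mouse and slide cannot be told apart at Kcnd3. Scn8a, with 0.77 ± 0.13, was among the members that stayed under 4-fold.

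The last of the 6 lists holds the neuronal cytoskeleton and its motors. Of 29 members with a probe, 21 were called higher and none lower. Map2, which stiffens dendritic microtubules, had 7.23 ± 0.14, the neurofilament Nefl had 6.66 ± 0.14, the axonal kinesin Kif5a had 6.09 ± 0.11 and the stathmin Stmn4 had 5.89 ± 0.08. Among the 8 members without a call were Dpysl3 at 0.10 ± 0.24 and Map1b at 1.36 ± 0.26.

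Markers of hippocampal fields were read next. No other brain region was compared, so ratios to the pool cannot tell the hippocampus from other brain tissue. All 14 dentate granule cell markers passed the filter and were above background in Cy5 in the hippocampus. Of these, 8 (57.1%, beside 9.59% of all features) were called higher, and none was called lower. The synaptic organiser C1ql3 had log2 ratios of 6.45, 6.41, 6.5, 6.68 and 6.51, a mean of 6.51 ± 0.10 or 91.2-fold, and Lct and Plk5 had 5.07 ± 0.12 and 3.84 ± 0.06. Prox1, the transcription factor that defines granule cells, was seen only in the hippocampus. It was not called, with a log2 ratio of 1.64, and its bound of 3.09-fold also lies under 4-fold. Of 12 CA1 markers, 5 were called higher (41.7%, beside 9.59% of all features). Mpped1 stood at 7.24 ± 0.12 and the transcription factor Pou3f1 at 4.19 ± 0.24, while Wfs1, at 1.84 ± 0.19, fell short of 4-fold. Of 18 markers of CA2 and CA3, 7 were called higher (38.9%) and 1 was called lower (5.56%, beside 5.75% of all features). The phosphatase Ptpn5, which the striatum also expresses strongly and so marks no field by itself, had 5.80 ± 0.23, Dkk3 had 5.41 ± 0.15 and the calmodulin regulator Pcp4 had 4.70 ± 0.16. The member called lower was the collagen Col6a1 (-2.43 ± 0.07), which is also made by fibroblasts.

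Transcription factors of the forebrain gave 18 calls among 32 members with a probe, all of them higher (56.25%, beside 9.59% of all features). Myt1l, a repressor of non-neuronal genes, had 5.02 ± 0.09, and Lhx2 and Zbtb18, which pattern the cortex, had 4.61 ± 0.12 and 4.58 ± 0.21. The Hox genes, which pattern the body behind the forebrain, went the other way. Of 39 Hox genes with a probe, 32 passed the filter, 13 were called lower (33.3%, beside 5.75% of all features) and none was called higher. Hoxc9 had log2 ratios of -5.01, -5.17, -4.97, -4.89 and -5.20, a mean of -5.05 ± 0.13. For 12 Hox genes the pool gave a signal on all 5 arrays and the hippocampus on none: Hoxb2 was at least 7.08-fold lower and Hoxa11 at least 6.40-fold lower. The number of Hox genes called ranged from 4, where both channels had to be above background, to 27 with the scanner software's own processed signals.

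Interneurons and peptide-releasing neurons gave 21 calls among 32 members with a probe, all higher (65.6%, beside 9.59% of all features). The vesicular GABA transporter Slc32a1 had log2 ratios of 6.17, 6.02, 6.19, 6.05 and 6.13, a mean of 6.11 ± 0.07 or 69.2-fold. The granule protein Chgb stood at 7.24 ± 0.18, and the neuropeptides Cck, Penk and Sst at 5.65 ± 0.04, 5.63 ± 0.40 and 3.90 ± 0.07. The GABA-synthesising enzyme Gad2 had 4.63 ± 0.20. Calb1, a calcium buffer, was at least 5.37-fold higher. The Dlx factors of developing interneurons had small ratios, from -0.42 ± 0.15 for Dlx2 to 0.54 ± 0.14 for Dlx1, and none was called.

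Glial and vascular lists held 118 tested genes. Of these, 72 were called higher (61.0%, beside 9.59% of all features) and 2 lower (1.7%, beside 5.75%). Astrocytes, which clear glutamate and buffer potassium, gave 21 calls among 25 members with a probe, all higher (84%). Mlc1, a protein of their perivascular endfeet, had log2 ratios of 7.13, 7.04, 7.05, 7.07 and 6.83, a mean of 7.02 ± 0.12 or 130-fold. The gap-junction gene Gjb6 had 6.37 ± 0.17, the glutamate transporter Slc1a3 had 6.16 ± 0.15 and glutamine synthetase Glul had 5.61 ± 0.22. Gja1, the other main astrocyte gap-junction gene, had 1.5 ± 0.24 and was not called.

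Oligodendrocytes wrap axons in myelin. Of 28 members with a probe, 20 were called higher (71.4%, beside 9.59% of all features) and none lower. The iron carrier Trf had 5.20 ± 0.19, the myelin protein Mal had 5.10 ± 0.44 and Gpr37 had 4.78 ± 0.12. Of 17 markers of oligodendrocyte precursors, 11 were called higher (64.7%) and 1 lower (5.88%, beside 5.75% of all features). The proteoglycans Cspg5 and Bcan had 6.43 ± 0.18 and 5.96 ± 0.13, whereas the proteoglycan Vcan was called lower at -2.15 ± 0.04. The precursor receptor Pdgfra stood at -1.68 ± 0.03, and Cspg4 at 0.04 ± 0.15. Both of these genes are also made by cells outside the brain.

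Microglia are the resident macrophages of the brain. Of 22 members with a probe, 7 were called higher (31.8%, beside 9.59% of all features) and 1 lower (4.5%, beside 5.75%). The fractalkine receptor Cx3cr1 had log2 ratios of 5.72, 5.58, 5.55, 5.70 and 5.34, a mean of 5.58 ± 0.15 or 47.8-fold, and complement C1qc and C1qa had 3.70 ± 0.12 and 3.50 ± 0.12. P2ry12, a purine receptor that marks resting microglia, was at least 14.3-fold higher. Ptprc, the pan-leukocyte antigen CD45, was called lower at -2.64 ± 0.07. Markers of peripheral macrophages gave 8 calls among 25 members, all lower (32%, beside 5.75% of all features). They were led by Chil3 at -5.12 ± 0.07, the chemokines Ccl4 and Ccl3 at -4.19 ± 0.23 and -3.81 ± 0.13, and Cd14 at -3.80 ± 0.18. Csf1r and Itgam, which are on both lists, had 1.71 ± 0.13 and 0.94 ± 0.16 and were not called. Endothelial and pericyte markers gave 13 calls among 28 members, all higher (46.4%, beside 9.59% of all features). Among them were the tight-junction gene Cldn5 of the blood-brain barrier at 4.76 ± 0.07 and Vtn at 4.25 ± 0.07. Pecam1, which endothelium everywhere expresses, had log2 ratios from -0.23 to 0.14 over the mice.

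**Figure D3:**
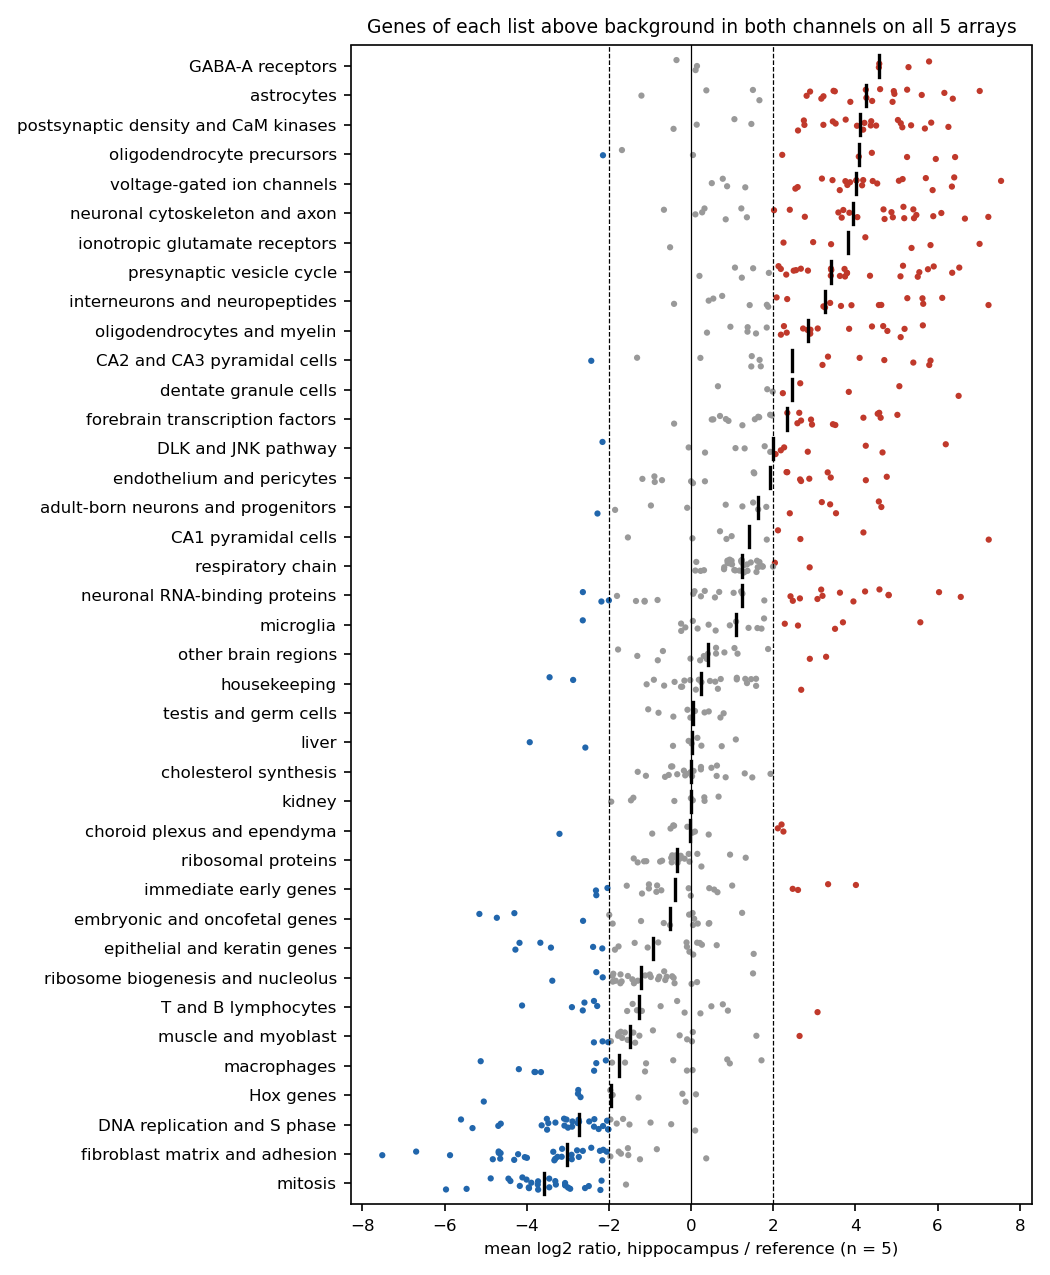
Mean log2 ratio over 5 mice for the members of each gene list that were above background in both channels on all 5 arrays; 1 point is 1 gene, red called higher, blue called lower, grey not called, and black bars are list medians. Medians run from -3.59 for mitosis to 4.57 for GABA-A receptors; members seen in 1 channel only are not drawn.

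The cell-cycle lists showed the reverse of the neuronal ones. Of the 69 genes tested in both lists together, 57 (82.6%, beside 5.75% of all features) were called lower and none higher. For mitosis, which covers spindle, kinetochore and cyclin B genes, 31 of 35 members with a probe were called lower. The survivin gene Birc5 had log2 ratios of -5.36, -5.55, -5.36, -5.42 and -5.64, a mean of -5.47 ± 0.12 or 44.2-fold lower. The cyclin Ccnb1 had -4.85, -4.93, -4.77, -4.81 and -5.03, a mean of -4.88 ± 0.10, and the spindle protein Nusap1 had -4.45 ± 0.16. No mouse came within 4-fold of the pool at any of these genes. The hippocampus gave no signal above background for 5 mitosis genes that the pool showed on all arrays, and the checkpoint kinase Bub1 was at least 29.9-fold lower.

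Genes of DNA replication and S phase gave 26 calls among 34 members, all lower. The ribonucleotide reductase subunit Rrm2, which supplies deoxynucleotides, had -5.15, -5.32, -5.24, -5.32 and -5.57, a mean of -5.32 ± 0.16. Uhrf1, which carries DNA methylation through replication, had -5.60 ± 0.24, and the licensing factor Cdt1 had -4.63 ± 0.08. The 6 subunits of the MCM2-7 helicase lay between -3.64 ± 0.06 for Mcm2 and -2.36 ± 0.07 for Mcm5, and all 6 were called. Pcna, which also serves DNA repair, was nearer to the threshold at -2.05 ± 0.10, and Tyms (-0.99 ± 0.15), Cdc45 (-0.49 ± 0.13) and Ccne1 (0.10 ± 0.06) were not called. Adult-born neurons arise from the few cells that still divide in the dentate gyrus. The list for them gave 7 calls higher (31.8%, beside 9.59% of all features) and 1 lower (4.5%, beside 5.75%) among 22 members. Fabp7 and Hes5, both also found in astrocytes, had 4.63 ± 0.16 and 4.57 ± 0.32, and the progenitor filament Nes had -1.85 ± 0.05 without a call. Dcx, the marker of immature neurons, was seen only in the hippocampus. It was not called, with a log2 ratio of 1.57, and its bound of 2.98-fold also lies under 4-fold.

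Promoters of the genes called were searched for short sequence motifs in the RefSeq windows of 300 bases (250 before to 50 after the annotated start, GRCm38.p6). Of the 16801 named genes tested, 13285 had such a window. The mitosis genes were of interest because cell-cycle promoters are known for paired elements: CCAAT boxes, bound by the factor NF-Y, and the cell-cycle homology region, here the letters TTTGAA, bound by repressor complexes in resting cells. Both motifs were searched on both strands, so that CCAAT may read ATTGG and TTTGAA may read TTCAAA. Stretches of 100 bases that end at the base before the start are shown for 4 mitosis genes called lower that hold both motifs, which stand in capitals. The 4 were picked after their values were seen. Cdc20 (chr4:118437344-118437443, minus strand), Top2a (chr11:99024190-99024289, minus strand), Ube2c (chr2:164769829-164769928, plus strand) and Cdk1 (chr10:69352913-69353012, minus strand) read 5′ to 3′ along the gene:
Cdc20: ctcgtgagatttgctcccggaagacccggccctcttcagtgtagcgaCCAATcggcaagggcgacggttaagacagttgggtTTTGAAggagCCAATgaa
Top2a: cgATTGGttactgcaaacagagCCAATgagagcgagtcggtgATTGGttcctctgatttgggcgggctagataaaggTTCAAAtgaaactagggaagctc
Ube2c: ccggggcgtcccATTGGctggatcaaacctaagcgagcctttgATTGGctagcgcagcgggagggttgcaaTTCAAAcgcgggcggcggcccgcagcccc
Cdk1: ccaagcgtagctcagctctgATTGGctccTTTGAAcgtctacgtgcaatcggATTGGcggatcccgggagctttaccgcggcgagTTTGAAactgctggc

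The log2 ratios of these genes were -4.01 ± 0.12 for Cdc20, the activator of the anaphase ligase, -3.95 ± 0.13 for the topoisomerase Top2a, -3.72 ± 0.10 for the ubiquitin conjugase Ube2c and -3.73 ± 0.03 for the mitotic kinase Cdk1. Of the 28 mitosis genes with a promoter window, 24 (85.7%) held CCAAT, 20 (71.4%) held TTTGAA and 19 (67.9%) held both. Among all 13285 tested genes with a window the shares were 38.8%, 13.1% and 5.46%, and among all 27025 genes with a window they were 37.9%, 18.1% and 7.12%. Genes called lower held both motifs in 11.6% of windows and genes called higher in 3.38%. With only genes at a log2 ratio of at most -3, the share was 15.4%. These shares are a description and not a test. The E2F letters TTTCCCGC and TTTGGCGC stood in 8 of 28 windows (28.6%) of the DNA replication list, beside 2.53% of tested genes and 1.63% of all genes.

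A different element, the cAMP response element TGACGTCA, is known from peptide and granule-protein genes, where the activity-regulated factor CREB binds. It is shown in capitals, in the 100 bases before the start, for 3 genes of the interneuron and peptide list. Chgb lies at chr2:132781542-132781641 (plus strand), Scg2 at chr1:79440027-79440126 (minus strand) and Sst at chr16:23890845-23890944 (minus strand):
Chgb: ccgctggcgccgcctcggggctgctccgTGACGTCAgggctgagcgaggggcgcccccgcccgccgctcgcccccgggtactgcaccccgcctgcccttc
Scg2: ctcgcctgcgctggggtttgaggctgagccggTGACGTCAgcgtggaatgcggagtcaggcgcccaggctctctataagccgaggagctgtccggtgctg
Sst: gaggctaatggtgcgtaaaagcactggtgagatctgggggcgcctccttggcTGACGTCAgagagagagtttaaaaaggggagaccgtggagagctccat

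The element began 72, 68 and 48 bases before the start in Chgb, Scg2 and Sst. Chgb and Scg2, which package peptides into dense-core granules, had log2 ratios of 7.24 ± 0.18 and 7.99 ± 0.12, and Sst, the peptide of one interneuron class, had 3.90 ± 0.07. Scg2 was above background in the pool on 3 of 5 arrays only, and Pcsk1, named next, on 1. Of the 22 tested members of this list with a window, 5 (22.7%) held TGACGTCA, and the other 2 were Pcsk1 and Cartpt, at 2.36 ± 0.18 and 2.34 ± 0.33. All 5 were called higher, on a list where 65.6% of members with a probe were. Of all 374 tested genes with TGACGTCA, 59 (15.8%) were called higher, beside 11.8% of all tested genes with a window. The share of windows that held TGACGTCA was 2.82% among tested genes and 1.88% among all genes. It was 3.76% among genes called higher and 2.13% among genes called lower. The interneuron and peptide list was added to the motif count, and these genes were picked, after their values were seen.

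The rarest motif searched was the core of the RE1 element, at which the repressor REST silences neuronal genes outside neurons: AGCACC, any 2 bases, then GGACAG, on either strand. It is shown in capitals for Gad2, the GABA-synthesising enzyme (chr2:22622127-22622226, plus strand), and for the AMPA receptor subunit Gria2 (chr3:80802936-80803035, minus strand), in the 100 bases that begin 200 bases before the start:
Gad2: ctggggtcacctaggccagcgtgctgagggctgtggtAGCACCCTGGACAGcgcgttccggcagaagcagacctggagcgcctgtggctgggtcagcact
Gria2: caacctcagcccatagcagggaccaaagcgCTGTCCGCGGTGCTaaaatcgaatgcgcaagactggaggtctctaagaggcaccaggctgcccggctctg

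Only 12 tested genes held this core (0.0903% of tested genes with a window), beside 0.0518% of all genes. Of these 12, 8 were called higher and none lower, where 11.8% of all tested genes with a window were called higher. The 8 were Hrh3 (5.0 ± 0.11), Robo2 (4.71 ± 0.23), Gad2 (4.63 ± 0.20), Fbll1 (4.28 ± 0.10), Scamp5 (4.12 ± 0.14), Ttc9b (3.95 ± 0.11), Fam163b (3.57 ± 0.11) and Gria2 (3.51 ± 0.16), the last above background in the pool on 3 arrays only. The other 4 were Ogdhl (0.87 ± 0.10), Lhx3 (0.43 ± 0.11), Pip (0.04 ± 0.06) and Lca5 (-0.13 ± 0.12). These 12 genes are named because they hold the motif, and their values were known when it was reported. Rest itself had log2 ratios of -2.24, -2.23, -2.13, -2.0 and -2.31, a mean of -2.18 ± 0.12, and was called lower. The ratio of Rest was -1.99 with median centring, -1.96 with no normalisation and -1.46 with the mean of its probes, which ends its call. A window without the core says nothing about the rest of a gene.

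Rest stood on a list of regulators of neuronal RNA, most of them splicing factors. All of its 32 members were measured in both channels. Of these, 14 were called higher (43.8%, beside 9.59% of all features) and 3 lower (9.38%, beside 5.75%). The CELF protein Celf3 had log2 ratios of 6.73, 6.45, 6.58, 6.43 and 6.62, a mean of 6.56 ± 0.12 or 94.6-fold, and Rbfox1, Celf4 and Celf5 had 6.03 ± 0.07, 4.81 ± 0.20 and 4.81 ± 0.15. The neuronal nuclear antigen Rbfox3 (NeuN) had 3.62 ± 0.08, and Srrm3 and Srrm4, which promote neuronal microexons, had 3.95 ± 0.07 and 3.07 ± 0.21. The polypyrimidine tract-binding protein Ptbp1, which represses neuronal exons in other cells, was called lower at -2.63 ± 0.04, with -2.61, -2.60, -2.62, -2.63 and -2.71 in the 5 mice. Its neuronal paralogue Ptbp2 had 1.25 ± 0.06, and Ptbp3 had -2.0 ± 0.08, on the threshold. Ptbp3 lost its call without WT replicate 3 (-1.98) and without WT replicate 4 (-1.99). Nova1 and Nova2, splicing factors of the nervous system, had only 0.33 ± 0.10 and 0.68 ± 0.12.

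Pairs of related genes, 1 member known from neurons or brain and 1 known from many or from other cell types, were set side by side. The pair Ckb and Ckm was not above background in both channels on all 5 arrays. In all 22 pairs in which both had a value, the ratio of the brain form exceeded that of its partner on every array with both values, and in 19 of them by at least 2 log2 units on average. The median difference was 3.91. The brain form was called higher in 19 pairs, and the partner was called higher in 3 and lower in 3. The tubulins differed most: Tubb3 had 5.57, 5.31, 5.46, 5.36 and 5.34, and Tubb6 had -4.51, -4.61, -4.52, -4.71 and -4.72, a difference of 10.02 ± 0.07. The cyclin-dependent kinases Cdk5, active in postmitotic neurons, and Cdk1 had 3.00 ± 0.07 and -3.73 ± 0.03. These were the 2 pairs called in opposite directions.

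Enzymes of sugar metabolism followed the same order. The lactate dehydrogenase subunits Ldhb and Ldha had 4.01 ± 0.19 and -0.87 ± 0.07, and the hexokinases Hk1 and Hk2 had 2.28 ± 0.23 and -1.75 ± 0.11. The aldolases Aldoc and Aldoa had 4.25 ± 0.12 and 1.67 ± 0.25, and the enolases Eno2 and Eno1 had 2.30 ± 0.09 and 0.19 ± 0.19. The phosphofructokinases Pfkp and Pfkl, at -0.24 ± 0.09 and -0.71 ± 0.17, differed by 0.47 ± 0.14, the smallest difference of the 22. Both members were called higher for the kinesins Kif5c (4.91 ± 0.05) and Kif5b (2.30 ± 0.10), the kinases Mapk10 and Mapk9, and the stathmins Stmn2 (3.85 ± 0.11) and Stmn1 (2.40 ± 0.26).

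**Figure D4:**
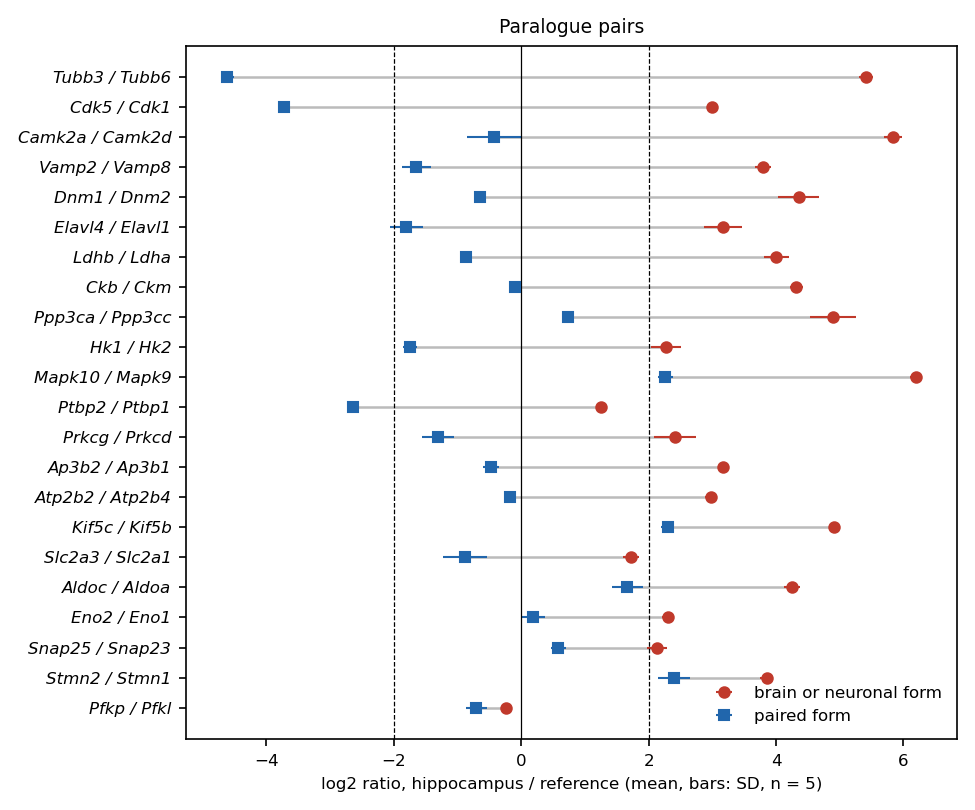
Mean log2 ratio of hippocampus over reference for 22 pairs of related genes; red circles are the brain or neuronal form, blue squares the paired form, bars are SD over 5 mice and dashed lines mark 4-fold. The red circle lies to the right of the blue square in every pair, from a difference of 0.47 for Pfkp and Pfkl to 10.02 for Tubb3 and Tubb6.

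The kinase under study, DLK, heads a cascade in which it activates the kinases MKK4 and MKK7, which activate the JNK kinases on scaffolds of the JIP family. Of 15 genes of this pathway, 7 were called higher (46.7%, beside 9.59% of all features) and 1 lower (6.67%, beside 5.75%). Map3k12, which encodes DLK, had log2 ratios of 2.11, 1.76, 1.74, 1.87 and 2.15, a mean of 1.93 ± 0.19 or 3.80-fold. WT replicates 1 and 5 lay above the threshold of 4-fold and the other 3 mice below it, so Map3k12 was not called. It passed 4-fold under 6 other settings, among them median centring (2.12), an offset of 16 (2.23) and plain background subtraction (2.59). Its relative Map3k13 (LZK) had 0.34 ± 0.04. The JNK genes differed: Mapk10 (JNK3), the form of neurons, had 6.2 ± 0.09 or 73.4-fold, Mapk9 (JNK2) had 2.26 ± 0.12 and Mapk8 (JNK1) had 1.08 ± 0.11. The scaffolds Mapk8ip1, Mapk8ip2 and Mapk8ip3 had 4.66 ± 0.09, 4.25 ± 0.07 and 2.84 ± 0.27, and Spag9 (JIP4) had 2.06 ± 0.06. The MKK genes Map2k4 and Map2k7 had 2.18 ± 0.23 and 0.34 ± 0.07, of which the first was called. With processed signals Spag9 had 1.72 and lost its call. Among downstream factors, Jun had -0.06 ± 0.38 and the stress-induced Atf3 was called lower at -2.16 ± 0.20. Atf3 ended just under 4-fold with median centring (-1.97) and with no normalisation (-1.94).

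Immediate early genes, switched on within minutes by neuronal firing and also by serum in culture, were split. Of 23 members with a probe, 5 were called higher (21.74%, beside 9.59% of all features) and 3 lower (13.04%, beside 5.75%). The plasticity gene Arc had log2 ratios of 3.66, 3.96, 4.19, 4.12 and 4.12, a mean of 4.01 ± 0.22, and Nr4a2, Homer1 and the activity-dependent factor Npas4 had 3.33 ± 0.18, 2.60 ± 0.06 and 2.47 ± 0.34. Egr4 was higher too, with 6.79 ± 0.15, and was above background in the pool on 3 arrays. Fos was called lower, with -2.41, -2.22, -1.98, -1.72 and -1.85 in the 5 mice and a mean of -2.04 ± 0.28. At this gene 3 mice lay inside 4-fold, so the call is close to the threshold and rests on the other mice. Ier2 and Klf4 were lower at -2.31 ± 0.04 and -2.32 ± 0.30. Egr1 had -0.73 ± 0.42 and Jun -0.06 ± 0.38, without a call.

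Lists of other tissues and cell types were read next. Fibroblast matrix and adhesion genes gave 32 calls among 42 members with a probe, all lower (76.2%, beside 5.75% of all features). Besides Anxa1, the collagen Col1a1 had -6.61, -6.77, -6.79, -6.72 and -6.57, a mean of -6.69 ± 0.10 or 103-fold lower, and thrombospondin Thbs1 and fibronectin Fn1 had -5.87 ± 0.04 and -4.83 ± 0.15. The protease Mmp3 was at least 28.0-fold lower. Sparc, in contrast, which brain glia and vessels also make, had 0.37 ± 0.16 without a call. Epithelial genes gave 6 calls among 32 with a probe, all lower (18.8%, beside 5.75% of all features), and 27 of the 32 passed the filter. The simple-epithelium keratins Krt19, Krt18 and Krt8 had -4.28 ± 0.02, -4.18 ± 0.09 and -3.67 ± 0.03. Lymphocyte genes gave 8 lower (25.8%, beside 5.75% of all features) and 1 higher (3.23%, beside 9.59%) among 31 with a probe. Of the 31, 24 passed the filter. The B-cell receptor chain Cd79b had -4.11 ± 0.28 and the T-cell receptor chain Cd3g -2.90 ± 0.09, while the exception was Thy1, a surface protein of both T cells and neurons, at 3.08 ± 0.12.

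Embryonic and oncofetal genes gave 5 calls among 27 with a probe, all lower (18.5%, beside 5.75% of all features), and 23 of the 27 passed the filter. The Notch-family ligand Dlk1, which is unrelated to the kinase DLK, had -5.15 ± 0.17, and Hmga2 had -4.73 ± 0.06. The pluripotency factors Pou5f1 and Nanog had 0.16 ± 0.26 and -0.51 ± 0.10. Liver genes gave 2 lower (7.41%) and 1 higher (3.7%) among 27 with a probe, of which 10 did not pass the filter. The shares of all features (5.75% and 9.59%) are counted over features that passed it, as only 17 of these genes did. The liver shares are therefore not set against them. The fetal protein Afp had -3.93 ± 0.22, and the member called higher was Ttr, which choroid plexus also makes. Muscle genes gave 3 lower (11.1%) and 1 higher (3.7%) among 27, with the smooth-muscle actin Acta2 at -2.37 ± 0.03 and the developmental myosin Myh8 higher at 2.64 ± 0.07. Kidney and testis lists gave 1 higher and none lower, and 1 higher and 1 lower, among 18 and 27 members with a probe. Of these, 14 and 19 passed the filter, so their shares are not set against those of all features either. The kidney gene called higher was the organic anion transporter Slc22a8, at 2.07 ± 0.41, which is also found at brain barriers and was above background in the pool on 1 array only.

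Genes used by all cells moved less. None of the 25 ribosomal protein genes was called, and their log2 ratios ran from -1.40 ± 0.26 for Rps18 to 1.33 ± 0.26 for Rps14. Of the 28 genes of ribosome biogenesis, 3 were called lower (10.7%, beside 5.75% of all features) and none higher. Myc, a driver of this programme, had -3.38 ± 0.18, and Nolc1 and Nop58 had -2.31 ± 0.18 and -2.15 ± 0.12. Nolc1 had -0.67 with the mean of its probes, and Nop58 had -1.89 with median centring and -1.86 with no normalisation, all without a call. A further 22 of them had ratios below 0 without a call. All 35 genes of the respiratory chain had ratios above 0, with a median of 1.23, although only Cox6a1 (2.89 ± 0.08) and Atp5g3 (2.04 ± 0.04) were called. Atp5g3 had 1.65 with median centring and 1.68 with no normalisation, without a call. Ratios under 4-fold in both of these lists also hold dye effects, so no difference is read from their signs. No gene of cholesterol synthesis was called among 22, and their median was 0.00398. Of 25 common reference genes, 1 was called higher (4%) and 2 lower (8%), shares near or under those of all features. Actb had 1.58 ± 0.23 and Gapdh 0.65 ± 0.22, without a call, whereas Reep5 was called higher at 2.68 ± 0.05 and B2m and Gusb lower at -2.87 ± 0.04 and -3.45 ± 0.08.

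The 5 mice differed from each other in a small set of genes. Of all features, 93.8% had an SD under 0.25 and 93 had an SD of 0.5 or more. These SDs hold the difference between mice and the error of the arrays together, and they were not tested. The largest, among genes measured in both channels on all arrays, was that of Adora2a, the adenosine receptor of striatal neurons. WT replicate 1 had 2.73 at this gene and the other 4 mice had 0.17 to 0.44, so 1 mouse stood apart and the mean of 0.81 describes none of them. Genes known from the striatum were highest in the same mouse. Rgs9, a striatal regulator of dopamine signalling, had 3.83 beside 2.62 to 2.69. The peptide Penk had 6.34 in WT replicate 1 beside 5.36 to 5.57, and Ptpn5 had 6.21 beside 5.63 to 5.74. Over the 33 tested genes of a list for other brain regions, WT replicate 1 was the highest mouse for 17. The 33 include 8 genes for which the pool was above background on no array, so their ratios depend on the background floor. The list mean was taken over the members measured in both channels on all arrays, also 17 in number. It was 0.82 in WT replicate 1 and 0.42 to 0.48 in the others. That list gave 6 calls higher among 36 members with a probe and none lower. Its share of 16.7% stood beside 9.59% of all features and 12.3% of named genes. The largest ratios among its measured genes were those of Ppp1r1b (3.29 ± 0.24) and Rgs9 (2.89 ± 0.53). With the mean of its probes Rgs9 had 1.86 and no call. Without WT replicate 1, Rgs9 had 2.65 ± 0.03 (SD, n = 4). Adora2a had 0.33 ± 0.12 over the same 4 mice. The part of striatal cells in these differences was not tested.

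Markers of choroid plexus, which secretes cerebrospinal fluid, and of the ciliated ependyma that lines the ventricles varied in another way. Of 24 members with a probe, 6 were called higher (25%, beside 9.59% of all features) and 1 lower (4.17%, beside 5.75%). Ttr, the thyroid hormone carrier that choroid plexus secretes, had 4.64, 4.92, 4.86, 4.0 and 2.99 in the 5 mice, and the chloride channel gene Clic6 had 2.35, 2.93, 2.59, 1.37 and 1.37. The pool was above background on 4 arrays for Ttr and on 3 for Clic6. WT replicate 5 was the lowest mouse for 19 of the 24 genes, and WT replicate 2 the highest for 14. The 24 include 2 genes for which the pool was above background on no array. The list mean was taken over the 12 members measured in both channels on all arrays, so without Ttr and Clic6. It ran from -0.40 in WT replicate 5 to 0.45 in WT replicate 2. The ependymal gene Ccdc153 had 0.75 in WT replicate 5 beside 2.12 to 3.03, and Calml4 had -2.06 beside -1.37 to -0.07. The member called lower was the water channel Aqp1, at -3.20 ± 0.25. Foxj1, the master factor of motile cilia, was called at 2.11 ± 0.33 and ended at 1.99 without WT replicate 2.

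Other genes of the 10 largest SDs followed other mice. Dkkl1, Atp6ap1l and Rasgef1c were high in WT replicates 1 and 4, at 0.21 and 0.05, 2.10 and 1.80, and 3.52 and 2.93, beside -1.67 to -1.34, 0.23 to 0.39 and 1.56 to 1.93 in the other 3 mice. The groups of mice did not overlap at these genes, but they were formed by looking at the values. The matricellular gene Ccn2 was likewise least low in these mice, at -1.22 and -0.74 beside -2.94 to -2.32, and it passed the call without WT replicate 1 (-2.15) and without WT replicate 4 (-2.27). The transcription regulator Lmo3 was high in WT replicate 5 (4.57) and WT replicate 3 (3.78) beside 2.93 to 3.00. The arrays of WT replicates 3 and 5 lay on slide 3 and those of WT replicates 1, 2 and 4 on slide 2. Mouse and slide cannot be told apart at Lmo3. The galectin Lgals8 had 1.18 in WT replicate 1 beside -1.24 to -1.0, and AI429214 had 1.48 in WT replicate 3 beside -0.41 to -0.19.

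**Figure D5:**
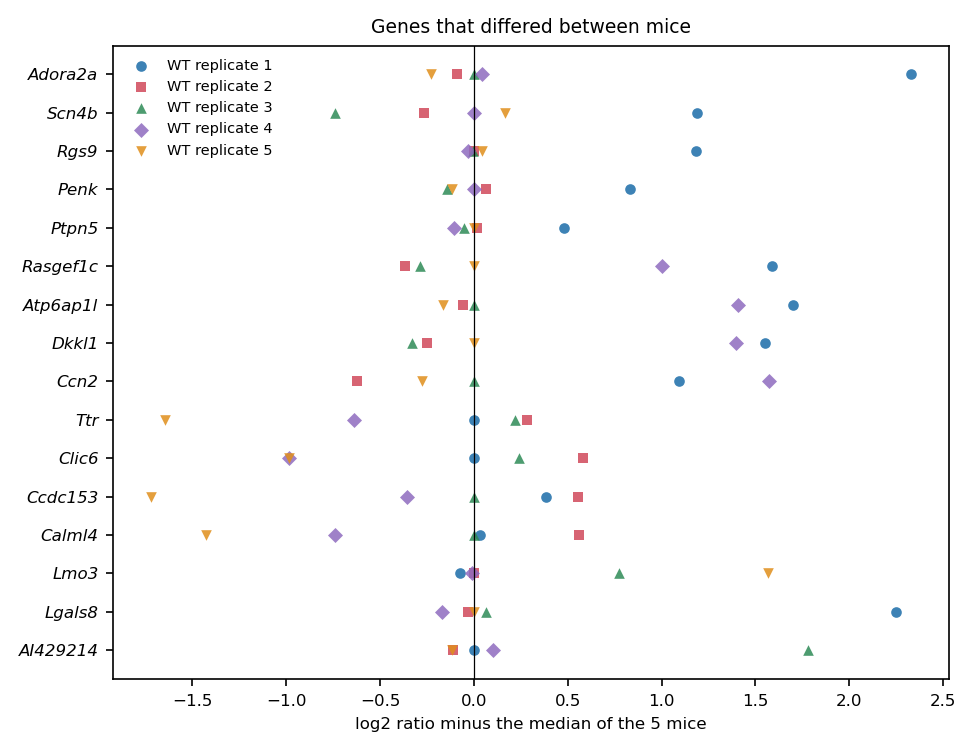
Log2 ratio of each mouse minus the median of the 5 mice for genes that differed between mice; each colour and marker shape is 1 mouse. Striatal genes from Adora2a to Ptpn5 are highest in WT replicate 1, Rasgef1c to Ccn2 in WT replicates 1 and 4, and Ttr to Calml4 are lowest in WT replicate 5, with Clic6 as low in WT replicate 4.

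A gene's value rests on the probe that stands for it. For 3230 genes with more than 1 probe measured in both channels on all arrays, the median difference between the highest and lowest probe was 0.577, and 70.3% differed by less than 1. For 3 genes, probes passed 4-fold in opposite directions. The widest gaps were at Rab3c (7.08 ± 0.15 and -0.09 ± 0.28), Araf (4.02 ± 0.03 and -3.10 ± 0.18), Scn2a (7.54 ± 0.21 and 0.63 ± 0.16), Grm5 (7.68 ± 0.21 and 0.84 ± 0.08) and Synpo (4.53 ± 0.06 and -2.21 ± 0.11). The brightest probe stood for each gene, which gave the higher of these values for Scn2a and Grm5 and, from another probe, 2.39 ± 0.05 for Araf.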

How the data were processed

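Spot values are deposited intensity values that the authors took with Agilent Feature Extraction 11.0.1.1, per the file headers: median signal and local background per spot, not normalised. The same deposited files hold log10 ratios and processed intensity values from that software. A value table deposited by the authors holds log2 values; the submitters' processing notes list limma, with no settings. Its columns correlated at 0.99997 or more with the log2 ratios computed here, so their direction is hippocampus over reference. The median absolute difference from those ratios was 0.000661 to 0.00411 per array, so their scale is log2. Their medians were 0.0152 to 0.0204, and no gene centring was seen. It served as an alternative only.

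Each array has 44397 spots, 1377 of them controls, and 39429 probes. Of these probes 26581 (67.4%) were given a symbol through their accession in RefSeq tables for GRCm38.p6. Non-uniform spots were removed first. Backgrounds were corrected by normexp (offset 50) and ratios by loess within arrays, with control spots at weight 0, in limma 3.58.1 (R 4.3.3). The offset draws ratios of dim spots towards 0, and loess assumes balanced differences. Population outliers were then removed and spots of a probe averaged. Probes well above background in either channel on at least 3 of 5 arrays were kept (30022), and the brightest stood for its gene. The test was limma's moderated test of the mean ratio, whose p-values measure the spread between mice and arrays. The number of arrays limits precision. The test step was tested on simulated data. A feature with a value missing on an array was fitted on the rest, and 120 values were missing.

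The genes named are the 15 highest and 15 lowest calls measured in both channels, up to 4 called members and 3 bounded members of each list, the 10 largest SDs, the 5 widest probe gaps and members of the pathway, RNA-binding and pair lists. Any other gene was named after its value was seen. Some genes that the rule takes are not reported here. The arrays, lists and motifs were chosen with earlier results of these data known. Promoters are the first listed for each gene. The arrays lay on slides 2 and 3 of the study, with WT replicates 1, 2 and 4 on slide 2 and 3 and 5 on slide 3. The fits for each slide alone are in the closing section.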

Additional observations from a re-analysis of the deposited data

Results flagged for a closer look

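Among 347 results with 5 mice, 30 had 1 mouse whose distance to the nearest other was large beside the range of the group. Chance alone gives this in about 1 in 20 unselected groups, or 17.4 of 347. These results were in part picked for a large SD or after their values were seen, and they share the same 5 mice. The count of 30 therefore cannot be read against that number. The mouse apart was WT replicate 5 in 12 of them and WT replicate 1 in 9.

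WT replicate 1 was highest for genes known from the striatum: Adora2a had 2.73, Rgs9 3.83, Penk 6.34 and Ptpn5 6.21. The mean of the list for other brain regions, 0.82, was highest in this mouse too. In the same mouse Lgals8 had 1.18, Ppp3cc 0.88 beside 0.68 to 0.72, and the transcription factor Jun -0.71 beside -0.04 to 0.20.

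WT replicate 5 had the lowest microglial list mean, 1.08 beside 1.30 to 1.35. Higher in this mouse were Bcl11a at 4.78 beside 4.45 to 4.54, Elavl2 at 3.47 beside 3.10 to 3.15, Rab3a at 6.21 beside 5.80 to 5.88, Mbnl2 at 0.92 and Snap23 at 0.79. Lower were Uhrf1 at -6.03 beside -5.54 to -5.46, Cox6a1 at 2.75, Cdk1 at -3.77 and Ptbp1 at -2.71, the last pair by under 0.1 log2 units.

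At 3 genes there was 1 array near 0 while the rest were far below it. Lat had 0.12 in WT replicate 2 beside -3.79 to -3.50, and Pask had 0.26 in the same mouse beside -3.46 to -3.20. Gmnn, an inhibitor of replication licensing, had 0.22 in WT replicate 4 beside -2.84 to -2.43. At these spots both channels were dim: Lat read 26 in Cy5 and 23.5 in Cy3, beside medians over the arrays of 175 and 2271, Pask read 30.5 and 20 beside 269 and 2516, and Gmnn read 28 and 20 beside 569 and 3060. The call of Gmnn was lost when any mouse but WT replicate 4 was left out.

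Of the others, AI429214 had 1.48 in WT replicate 3 and Mapk8 had 1.28 there beside 1.02 to 1.04. Fbll1 had 4.46 in WT replicate 4 beside 4.22 to 4.25. In WT replicate 2, Ckm had -0.23, and the mean of the neuronal cytoskeleton list was 3.55 beside 3.62 to 3.64.

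For 4 more genes the pool was above background on no array, so the hippocampus over reference has only a bound and these log2 ratios depend on the background floor: Coch had 2.54 in WT replicate 1, Nlgn1 5.55 and Gpr34 3.54 in WT replicate 5, and Tie1 0.63 in WT replicate 2. No difference between mice is read from them. The mean over mice of Coch was 1.48, 2.17 with an offset of 16 and 5.0 with plain background subtraction.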

How the results depend on the processing

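Of 233 named genes with a call, 206 kept it under each of the 21 alternatives that left the size threshold alone and still tested them. Where both channels had to be above background on all arrays, some called genes, such as Bub1 and Grik3, were not tested. Their missing result was not counted as a lost call. None of the 233 changed direction under any of the 24 alternatives that tested it. The counts of 2383 higher and 1428 lower calls stayed within 1.5 times under the authors' deposited table, array weights, Aquantile scaling, either filter on dim probes, averaged probes of a gene, and slide as a random block. Plain background subtraction gave 2354 lower calls and the scanner software's processed signals 2985. A size threshold of 1 gave 4871 higher and 4084 lower, a threshold of 3 gave 1326 and 516, and the treat test against 1 gave 4311 and 3515. Leaving out 1 mouse gave 2363 to 2397 higher and 1402 to 1437 lower. Slide 2 alone (3 mice) gave 2373 and 1396, and slide 3 alone (2 mice) 2391 and 1478. The median log2 ratio of all features was 0.0491 after loess, 0.145 with median centring, 0.176 with no normalisation and -0.0528 with processed signals, and the median change of single features from loess was 0.19, 0.221 and -0.2. Calls near 4-fold depended on these choices: 8 genes, among them Atp5g3, Cnn1, Des, Nop58, Atf3, Rest and Ptbp3, ended under 4-fold with median centring, and 12 did when probes of 1 gene were averaged. The latter took Mapk9 to 1.41, Hk1 to 1.6, Stmn1 to 1.75, Rgs9 to 1.86 and Nolc1 to -0.67, all without a call. Zic1 had 0.30 on a probe measured in both channels, against at least 12.4-fold higher on its brightest probe. If any promoter of a gene could hold TTTGAA, an alternative chosen after seeing the data, its share went from 20.4% to 23.3% among genes called lower, from 8.55% to 12.4% among those called higher and from 13.1% to 15.4% among all tested genes. No paired analysis was possible because only 1 group was used, against the reference channel of its own arrays. Dim signal limits the Hox, glutamate receptor and GABA-A receptor lists, where many members have only a bound.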

Other observations

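Features without a symbol were called less often than named genes: 4.03% of the 8049 were higher and 3.94% lower, beside 12.3% and 6.61% of the 16801 named genes. They were not described further.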
